A study of Caenorhabditis elegans with 40 samples.

Results

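The RNA responses of 2 Caenorhabditis elegans mutants, each lacking 1 working copy of a gene for a protein of the small ribosomal subunit, were compared with each other. The members were the RNA-seq libraries of these mutants and of wild-type animals with the same balancer, 11 of the 17 distinct RNA libraries of the series. The rps-10(0)/tmC20 mutants carried the nonsense allele cc2557 over the balancer tmC20 [unc-14(tmIs1219) dpy-5(tm9715)] on chromosome I, and the rps-23(0)/tmC5 mutants carried the nonsense allele cc5994 over the balancer tmC5 [F36H1.3(tmIs1220)] on chromosome IV. Their controls, WT/tmC20 and WT/tmC5, carried the same balancer over a chromosome with the wild-type ribosomal protein gene, so that a balancer copy was common to mutants and controls of a pair and differed between the pairs. All animals grew without treatment at 16 °C on OP50 bacteria. Mutants were collected at day 4 as L4 larvae (2 libraries each), and controls at day 3 or day 4 (3 libraries for WT/tmC20 and 4 for WT/tmC5). The labels give L4 for the day 3 controls and for replicate 2 of each day 4 control, and pregravid adult for replicate 1 of each day 4 control, so that the controls pooled here hold adults as well as larvae. Each mutant was a single allele, and RNA came from whole animals, in which fewer cells of a type and less RNA per cell cannot be told apart.

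A ribosomal protein is an obligate part of the ribosome, and cells that lose a copy of its gene may make fewer ribosomes. RPS-10 lies on the head of the small subunit, where messenger RNA enters, and RPS-23 lies near the decoding centre, where codon and anticodon are matched. Both proteins belong to the same subunit, and the mutants were compared for genes that change in both and genes that change in only one. The difference between the 2 changes was tested directly. The pairs also differ in balancer and in the stages of their controls.

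Depth ran from 1017787 to 2384186 counts per library, and 9276 of 9532 genes were counted deeply enough to be tested. The deposited columns for the day 3 and day 4 animals of WT/tmC20 replicate 2 held identical counts and were used as 1 library of unknown age, called replicate 2 here. The day 4 columns of WT/tmC5 shared 1 heading and are called the first and the second day 4 column. Control libraries differed in stage markers. The summed level of 6 vitellogenin genes, which code for the yolk proteins of adults, was 17300, 21900 and 83790 CPM (counts scaled to libraries of equal size) in WT/tmC20 day 3 replicate 1, replicate 2 and day 4 replicate 1. In WT/tmC5 it was 68240 CPM in day 3 replicate 1, 1951 CPM in day 3 replicate 2, 3410 CPM in the first day 4 column and 84580 CPM in the second. The 4 mutant libraries lay between 17110 and 22500 CPM. A list of 33 oocyte and eggshell genes fell into the same 3 ranges, with 1003 and 1433 CPM in the low WT/tmC5 libraries, 13840 to 14680 CPM in the 3 high control libraries and 3429 to 4879 CPM in the others, and 48 molting genes ran the other way, with 744 to 848 CPM in those 3 libraries and 5069 to 10870 CPM in the other 8. WT/tmC5 day 3 replicate 1 is labelled L4 and went against that label by its yolk RNA. No library was regrouped, and the part that stage had in any result below was not tested, although each count was repeated with every library left out in turn. The authors describe their replicates as independent biological ones, but nothing in the labels states that they came from separate cultures. The p-values measure only the spread between these libraries.

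**Figure D1:**
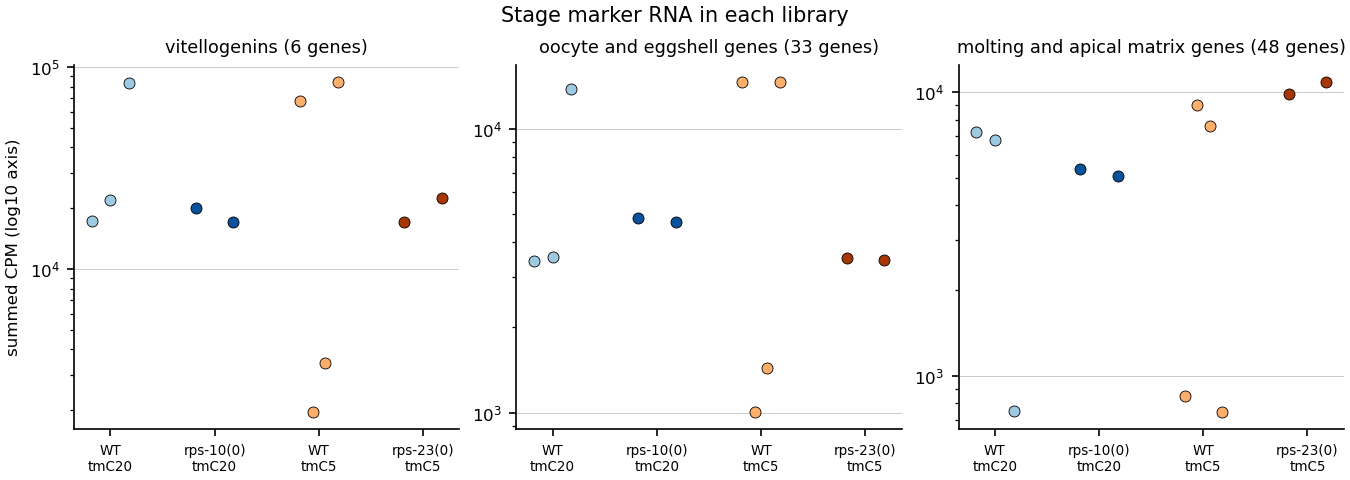
Summed CPM (log10 axis) of the vitellogenins, the oocyte and eggshell genes and the molting genes in each of the 11 libraries, with 1 point per library. A single WT/tmC20 library and 2 WT/tmC5 libraries stood between 68240 and 84580 CPM for the vitellogenins, while the 4 mutant libraries lay between 17110 and 22500 CPM.

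The mutated genes were examined first. rps-10 RNA was 1069 and 1136 CPM in rps-10(0)/tmC20 and 1795, 1553 and 1394 CPM in WT/tmC20, whereas it was 2414 and 2499 CPM in rps-23(0)/tmC5 and between 1268 and 1991 CPM in WT/tmC5. rps-23 RNA was 808 and 715 CPM in rps-23(0)/tmC5 and between 838 and 1205 CPM in WT/tmC5, against 992 and 1224 CPM in rps-10(0)/tmC20 and 809 to 991 CPM in WT/tmC20. Each gene was thus lowest in its own mutant and its groups did not overlap in either pair, but neither fold change passed the threshold (log2 -0.52 ± 0.27 (SE) for rps-10 in its mutant, adjusted p = 1, and -0.41 ± 0.24 for rps-23 in its mutant, adjusted p = 0.62). The difference between the mutants was -1.10 on the log2 scale for rps-10 (95% interval -1.89 to -0.30) and 0.68 for rps-23 (-0.06 to 1.43), with adjusted p of 0.96 and 1.

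At an adjusted p below 0.05, 12 genes (0.129% of those tested) changed in rps-10(0)/tmC20, 8 higher (0.0862%) and 4 lower (0.0431%), with 295 (3.18%) at an unadjusted p below 0.05. In rps-23(0)/tmC5, 58 genes changed (0.625%), 35 higher (0.377%) and 23 lower (0.248%), with 1031 (11.1%) at an unadjusted p below 0.05. Both lists held 7 genes (0.0755%), which was 58.3% of the rps-10(0)/tmC20 list and 12.1% of the rps-23(0)/tmC5 list, and all 7 moved in the same direction in both mutants. The contrast that subtracts one change from the other called 0 of 9276 genes in edgeR (0%), with 327 genes at an unadjusted p below 0.05 (3.53%) and a smallest adjusted p of 0.124. limma voom also called 0, and DESeq2 called 39. The mean of the 2 changes, which pools 4 mutant libraries, called 53 genes (0.571%), 26 higher (0.28%) and 27 lower (0.291%), with 922 (9.94%) at an unadjusted p below 0.05. Single libraries moved these counts. Without either rps-23(0)/tmC5 library 7 genes were called in that mutant, and without either rps-10(0)/tmC20 library 2 genes were called in that one. Without WT/tmC20 day 4 replicate 1 the counts were 8 in rps-10(0)/tmC20, 155 in rps-23(0)/tmC5 and 14 in the contrast between them.

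The 95% interval of the difference had a median half-width of 1.55 on the log2 scale, so that a typical gene had to differ 2.92-fold between the mutants for its interval to leave out 0. Among the 56 genes called in 1 mutant alone, the interval left out 0 for 44 and included it for 12. For those 12, a difference between the mutants was not detectable with these few libraries and their spread. Over all genes tested, 5968 (64.3%) had the same sign in both mutants, but the share was 44.5% with only the day 3 controls and 45.0% without WT/tmC20 day 4 replicate 1. Of the 53 genes called in the mean 52 had the same sign, which a call in a mean favours by its construction. The spread of the single genes around the diagonal is drawn in the plot of one change against the other.

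**Figure D2:**
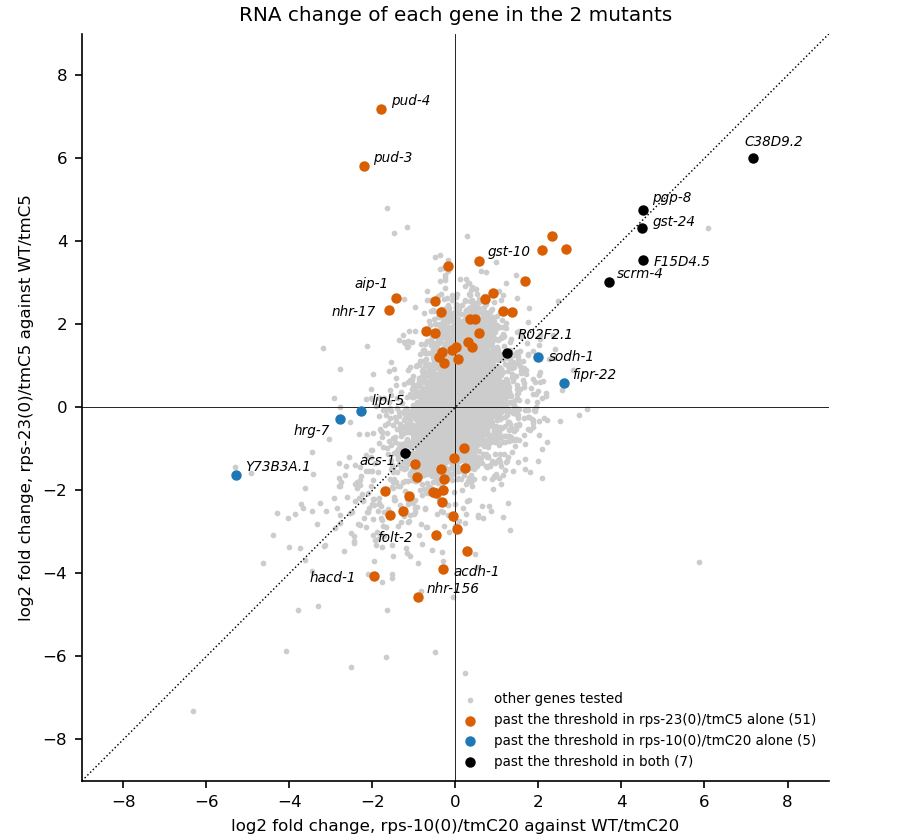
Log2 fold change of each of 9276 genes in rps-10(0)/tmC20 (x axis) and rps-23(0)/tmC5 (y axis), each against the wild type with the same balancer. The dotted line marks equal change, the 7 genes past the threshold in both lie near it, and the 51 genes past it in rps-23(0)/tmC5 alone lie on both sides of 0 on the x axis.

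The 7 genes called in both mutants were C38D9.2, pgp-8, F15D4.5, gst-24, scrm-4 and R02F2.1, which rose, and acs-1, which fell. They included genes for a glutathione transferase that joins glutathione to reactive compounds (gst-24), an ABC transporter of the P-glycoprotein family that exports small molecules (pgp-8), a member of the scramblase family that moves phospholipids between membrane leaflets (scrm-4) and an acyl-CoA synthetase, which activates fatty acids (acs-1). No role is given here for C38D9.2, F15D4.5 and R02F2.1. They lie on 4 autosomes and the X chromosome of WBcel235, with C38D9.2 at chrV:17567150-17571742, pgp-8 at chrX:10859301-10864422, F15D4.5 at chrII:13245376-13247774, gst-24 at chrII:13610443-13611366, scrm-4 at chrI:11680899-11682441, R02F2.1 at chrIII:5501885-5506400 and acs-1 at chrV:6524989-6532089.

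C38D9.2 was at 204 and 195 CPM in rps-10(0)/tmC20, against 2.94, 1.36 and 0 CPM in WT/tmC20, and at 174 and 181 CPM in rps-23(0)/tmC5, against 1.60 to 3.90 CPM in WT/tmC5. The 4 mutant libraries were thus within a narrow range, far above all 7 controls. Its log2 fold changes were 7.17 ± 0.63 (adjusted p = 0.000163) and 6.0 ± 0.50 (adjusted p = 8.08e-05), and their difference was 1.17 with an interval of -0.63 to 2.97. F15D4.5 was at 59.6 and 58.7 CPM in rps-10(0)/tmC20 with 0.981 to 4.77 CPM in the controls, and at 31.1 and 47.3 CPM in rps-23(0)/tmC5 with 2.34 to 4.39 CPM in the controls. Neither gene's groups overlapped in either pair. The changes of F15D4.5 were 4.53 ± 0.48 and 3.55 ± 0.41 (adjusted p = 0.000833 and 0.00084), with a difference of 0.98 (-0.41 to 2.38). The exons of C38D9.2 and F15D4.5 shared 1.98% and 4.9% of their 31-base words with each other, so a small part of their reads could be split between them.

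pgp-8 stood at 71.2 and 60.7 CPM in rps-10(0)/tmC20 and at 48.5 and 60.6 CPM in rps-23(0)/tmC5, and no control exceeded 4.21 CPM. Its changes of 4.53 ± 0.61 and 4.75 ± 0.54 (adjusted p = 0.00856 and 0.00084) differed by -0.22 (-1.93 to 1.49). gst-24 was at 139 and 177 CPM in rps-10(0)/tmC20 and at 168 and 174 CPM in rps-23(0)/tmC5. Its controls spread more, from 2.94 to 11.9 CPM in WT/tmC20 and from 1.87 to 14.8 CPM in WT/tmC5, and remained far below the mutants. The changes were 4.5 ± 0.80 and 4.32 ± 0.70 (adjusted p = 0.0481 and 0.0096), with a difference of 0.18 and the widest interval among the 7, -2.07 to 2.42.

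scrm-4 was the least abundant of the 7 in the mutants, at 17 and 17.8 CPM in rps-10(0)/tmC20 and 12.1 and 15 CPM in rps-23(0)/tmC5, with 0.702 to 2.91 CPM over the 7 controls. It overlaps the antisense gene kpc-1 over 7.75% of its exons, and the strand setting of the counting is not given in the sources used here. The groups did not overlap, and its changes of 3.70 ± 0.63 and 3.01 ± 0.54 (adjusted p = 0.04 and 0.0189) differed by 0.69 (-1.16 to 2.54).

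R02F2.1 and acs-1 showed smaller changes with a tighter interval. R02F2.1 was at 497 and 396 CPM in rps-10(0)/tmC20 and at 513 and 573 CPM in rps-23(0)/tmC5, against 150 to 225 CPM in WT/tmC20 and 211 to 232 CPM in WT/tmC5. Its changes were 1.24 ± 0.20 and 1.3 ± 0.19 (adjusted p = 0.0281 and 0.00482). acs-1 was at 72.7 and 80.4 CPM in rps-10(0)/tmC20, against 163, 172 and 197 CPM in WT/tmC20, and at 67.5 and 66.7 CPM in rps-23(0)/tmC5, against 137 to 151 CPM in WT/tmC5. It fell in both mutants, by 1.21 ± 0.21 and 1.10 ± 0.20 on the log2 scale (adjusted p = 0.0429 and 0.0228), with no overlap of groups. The difference between the mutants was -0.06 (-0.67 to 0.54) for R02F2.1 and -0.11 (-0.71 to 0.49) for acs-1.

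**Figure D3:**
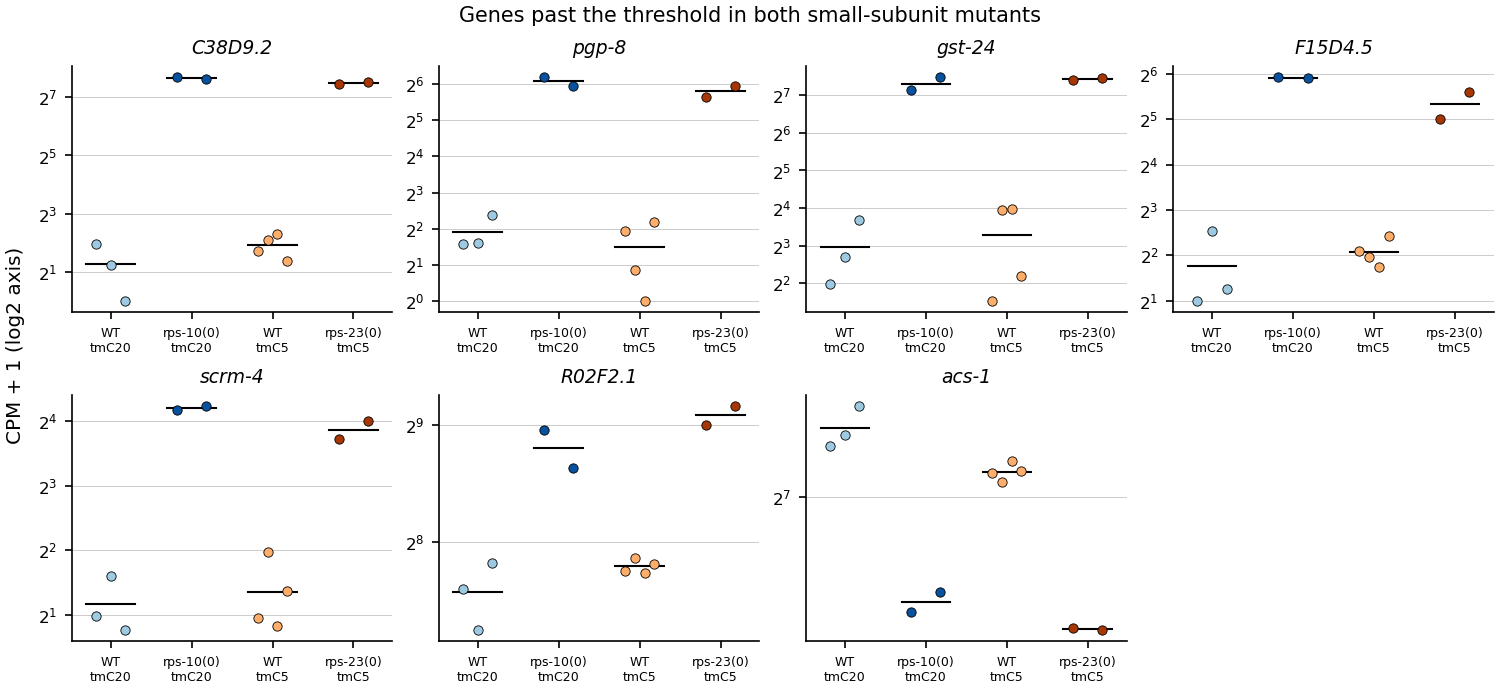
CPM + 1 (log2 axis) of the 7 genes past the threshold in both mutants, with 1 point per library and a line at the group mean. For each gene the 2 libraries of a mutant stand apart from all libraries of their control, with C38D9.2 at 174 to 204 CPM in mutants and at most 3.90 CPM in controls.

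All 7 were also called in the mean of the 2 changes, from which they took mean log2 changes of 6.58 for C38D9.2, 4.64 for pgp-8, 4.41 for gst-24, 4.04 for F15D4.5, 3.35 for scrm-4, 1.27 for R02F2.1 and -1.16 for acs-1. Their standing in single mutants depended on single libraries. C38D9.2 and F15D4.5 passed in rps-10(0)/tmC20 under all 24 alternatives run, pgp-8 under 18 of 24, R02F2.1 under 10 of 25, gst-24 and scrm-4 under 9 of 24 each, and acs-1 under 6 of 25. acs-1 lost its call in rps-10(0)/tmC20 with each of the 11 libraries left out in turn, at log2 changes of -1.28 to -1.13. In the mean, C38D9.2, pgp-8, gst-24, F15D4.5 and scrm-4 passed under all 24 alternatives, R02F2.1 under 23 of 25 and acs-1 under 22 of 25. No sign of any of the 7 changed in either mutant or in the mean. The count of genes called in both mutants was 2 without either rps-10(0)/tmC20 library and without either WT/tmC20 day 3 replicate 1 or replicate 2.

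The 250 bases before the annotated start of each gene were searched for short motifs, because these genes moved together and gst-24 and pgp-8 are of the kinds of detoxification gene that the transcription factor SKN-1, the worm relative of Nrf2, is known to act on. The SKN-1 core was searched as ATGTCAT, as ATATCAT, as TTGTCAT and as TTATCAT on both strands, the GATA factor motif as TGATAA and the DAF-16 motif as GTAAACA. The form TTATCAT contains the reverse of TGATAA, so a hit to it counts for both. A SKN-1 form was present for 3 of the 7 genes, where 19.2% of the 9269 tested genes with such a window had one. TGATAA was present for 3 of 7 (27.2% of all windows) and GTAAACA for 1 of 7, R02F2.1 (4.47%). The windows of the 3 genes with a SKN-1 form are shown because they are the strongly raised genes that share it, in lower case with that form in capitals, 5′ to 3′ toward the gene, from WBcel235.
gst-24, chrII:13611367-13611616, minus strand: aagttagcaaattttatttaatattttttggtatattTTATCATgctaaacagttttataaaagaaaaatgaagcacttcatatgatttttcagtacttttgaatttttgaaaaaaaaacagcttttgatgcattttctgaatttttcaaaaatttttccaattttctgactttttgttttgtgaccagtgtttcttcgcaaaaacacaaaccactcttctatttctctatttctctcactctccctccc
pgp-8, chrX:10864423-10864672, minus strand: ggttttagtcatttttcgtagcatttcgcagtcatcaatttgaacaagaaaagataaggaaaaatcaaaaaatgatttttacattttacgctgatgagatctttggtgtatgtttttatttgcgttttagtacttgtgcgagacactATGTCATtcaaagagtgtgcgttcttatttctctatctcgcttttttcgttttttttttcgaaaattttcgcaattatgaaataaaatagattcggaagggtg
C38D9.2, chrV:17566900-17567149, plus strand: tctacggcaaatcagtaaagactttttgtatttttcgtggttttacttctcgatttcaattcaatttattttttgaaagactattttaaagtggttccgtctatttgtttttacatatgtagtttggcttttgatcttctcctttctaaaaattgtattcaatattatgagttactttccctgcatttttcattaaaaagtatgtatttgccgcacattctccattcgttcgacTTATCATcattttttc
These matches are descriptions of the sequence, and the window of F15D4.5, which rose as strongly as pgp-8 and gst-24 in rps-10(0)/tmC20, held none of the 3 motifs.

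Genes that fell in rps-23(0)/tmC5 alone included enzymes of propionate, fatty acid and one-carbon metabolism. acdh-1, the acyl-CoA dehydrogenase that begins the propionate shunt, a route for propionate breakdown that needs no vitamin B12, was at 64.5 and 108 CPM in rps-23(0)/tmC5, against 956, 1679, 1754 and 776 CPM in WT/tmC5. In rps-10(0)/tmC20 it was at 1496 and 1434 CPM, within its controls at 2351, 2251 and 788 CPM. Its log2 change was -3.90 ± 0.59 (adjusted p = 0.00618) in rps-23(0)/tmC5 and -0.29 ± 0.50 (adjusted p = 1) in rps-10(0)/tmC20, a difference of 3.61 (2.07 to 5.15, adjusted p = 0.168).

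hach-1, the hydrolase of the same shunt, was at 64.5 and 70.6 CPM in rps-23(0)/tmC5 and 257 to 345 CPM in WT/tmC5, and at 265 and 231 CPM in rps-10(0)/tmC20 with 399, 365 and 260 CPM in WT/tmC20. It fell by 2.08 ± 0.23 on the log2 scale in rps-23(0)/tmC5 (adjusted p = 0.00084) and stood at -0.46 ± 0.22 in rps-10(0)/tmC20 (adjusted p = 1), and the difference was 1.62 (0.96 to 2.28, adjusted p = 0.137). acdh-2, a close relative of acdh-1, was nearly lost in rps-23(0)/tmC5, at 1.52 and 6.67 CPM against 28.9 to 42.1 CPM in WT/tmC5, while 60.6 and 39.5 CPM in rps-10(0)/tmC20 lay around its controls at 34.4 to 59.3 CPM. The difference was 2.97 (1.70 to 4.23, adjusted p = 0.168). The mutant libraries themselves carried most of these 3 differences, with fitted mutant against mutant log2 differences of 4.08 for acdh-1 and 3.53 for acdh-2, against 0.48 and 0.56 between the controls.

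On a list of 51 desaturases, elongases and acyl-CoA enzymes, 1 fell in rps-10(0)/tmC20 (acs-1), 7 fell in rps-23(0)/tmC5 and 8 fell in the mean of the 2 changes (acdh-1, acdh-2, acs-1, elo-1, elo-2, elo-5, elo-6 and hacd-1), with none higher. Over all genes tested 0.0431%, 0.248% and 0.291% fell. The list median was near 0 in each, at -0.02, 0.03 and 0.03, beside -0.05, -0.08 and -0.05 over all genes tested. elo-5 and elo-6, elongases for branched-chain fatty acids, and elo-2, which extends palmitate, lay below all their controls in both mutants. elo-6 was at 32.0 and 43.9 CPM in rps-10(0)/tmC20 with 110 to 148 CPM in WT/tmC20, and at 26.5 and 23.9 CPM in rps-23(0)/tmC5 with 71.4 to 134 CPM in WT/tmC5. Its changes were -1.70 ± 0.33 (adjusted p = 0.0868) and -2.0 ± 0.33 (adjusted p = 0.0101), and they differed by only 0.30 (-0.62 to 1.23). For elo-2, elo-5 and elo-6 the interval of the difference included 0.

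hacd-1, named for hydroxyacyl-CoA dehydrogenase, was at 5.33 and 2.96 CPM in rps-10(0)/tmC20 with 10.8 to 21.8 CPM in WT/tmC20, and at 0.758 and 2.22 CPM in rps-23(0)/tmC5 with 17.6 to 37.9 CPM in WT/tmC5. It fell by 4.06 ± 0.61 in rps-23(0)/tmC5 and had a change of -1.96 ± 0.53 in rps-10(0)/tmC20 (adjusted p = 0.561). On the same list the stearoyl-CoA desaturase fat-6 had the reverse order, at 69.3 and 76.5 CPM in rps-10(0)/tmC20 with 181 to 300.1 CPM in WT/tmC20, and at 250.2 and 300.2 CPM in rps-23(0)/tmC5 with 242 to 414 CPM in WT/tmC5. Its change of -1.68 ± 0.34 in rps-10(0)/tmC20 missed the threshold (adjusted p = 0.105), and the difference of -1.49 (-2.43 to -0.55) had an adjusted p of 0.646.

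Several called genes without a list of their own act in folate and methionine metabolism and are described one by one. They were taken from the calls, and uncalled genes of this metabolism were not examined as a set. The cystathionine gamma-lyase relative cth-1, described at the end, lay above its controls in rps-23(0)/tmC5. folt-2, a folate transporter, was at 14.4 and 10 CPM in rps-23(0)/tmC5, against 73.5 to 139 CPM in WT/tmC5, and at 91.6 and 78.9 CPM in rps-10(0)/tmC20, between its controls at 58.3 and 151 CPM. It fell by 3.08 ± 0.45 in rps-23(0)/tmC5 (adjusted p = 0.00542), and the difference was 2.61 (1.39 to 3.83, adjusted p = 0.225). metr-1, the methionine synthase, was at 263 and 274 CPM in rps-23(0)/tmC5 and 774 to 1364 CPM in WT/tmC5, and at 722 and 719 CPM in rps-10(0)/tmC20 and 559.5 to 1063 CPM in WT/tmC20. metr-1 fell by 1.98 ± 0.41 in rps-23(0)/tmC5 (adjusted p = 0.0431). The S-adenosylmethionine synthetase sams-3, the S-adenosylmethionine decarboxylase smd-1 and the phosphoethanolamine methyltransferase pmt-2 fell too, by 1.49, 1.72 and 1.67 (adjusted p = 0.00618, 0.00445 and 0.041). Their changes in rps-10(0)/tmC20 were -0.35, -0.27 and -0.93, none past the threshold, and the interval of the difference left out 0 for sams-3 (0.49 to 1.79) and smd-1 (0.75 to 2.14) and included it for pmt-2 (-0.24 to 1.72). sams-3 shared 56.3% of its 31-base words with sams-4 and others, so its reads cannot be assigned with certainty.

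Among 82 nuclear hormone receptor genes, which code for ligand-regulated transcription factors, nhr-156 and nhr-114 fell and nhr-17 rose in rps-23(0)/tmC5, while none passed in rps-10(0)/tmC20. Over all genes tested 0.625% were called in rps-23(0)/tmC5. nhr-114, known for its part in the response to low vitamin B12, fell by 2.5 ± 0.47 (adjusted p = 0.0257) in rps-23(0)/tmC5 and had a change of -1.26 ± 0.44 in rps-10(0)/tmC20. It was at 12.1 and 10.6 CPM in rps-23(0)/tmC5 with 39.2 to 102 CPM in WT/tmC5, and at 33 and 30.6 CPM in rps-10(0)/tmC20 with 54.8 to 94.2 CPM in WT/tmC20. Its difference of 1.25 had an interval of -0.06 to 2.55. nhr-156 was at 0 and 1.11 CPM in rps-23(0)/tmC5 and 13.6 to 20.4 CPM in WT/tmC5, and at 4.85 and 6.41 CPM in rps-10(0)/tmC20 and 7.02 to 12.8 CPM in WT/tmC20, a difference of 3.67 (1.62 to 5.71, adjusted p = 0.437).

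Genes that rose in rps-23(0)/tmC5 alone were led by pud-4 and pud-3, neighbours that run in opposite directions on chromosome V (pud-3 at 2324634 to 2325152 on the minus strand, pud-4 at 2326678 to 2327282 on the plus strand, WBcel235) and are named for proteins up-regulated in insulin receptor (daf-2) mutants. pud-4 was at 62.9 and 65.6 CPM in rps-23(0)/tmC5 and at most 0.780 CPM in WT/tmC5, where 1 of 4 libraries had none. In rps-10(0)/tmC20 it was at 0 and 2.96 CPM, and its WT/tmC20 controls were at 4.90, 8.18 and 2.81 CPM. pud-4 rose by 7.18 ± 0.94 (adjusted p = 0.00344) in rps-23(0)/tmC5, while in rps-10(0)/tmC20 its libraries overlapped with the controls and its change of -1.80 ± 1.04 (adjusted p = 1) did not pass. The difference of -8.98 (-12.12 to -5.84) had the smallest unadjusted p of all genes, 2.44e-05, and an adjusted p of 0.124. pud-3 was at 150.1 and 116 CPM in rps-23(0)/tmC5 with 0.799 to 4.16 CPM in WT/tmC5, and at 0.969 and 4.44 CPM in rps-10(0)/tmC20 with 2.81 to 17.7 CPM in WT/tmC20.

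The 15 glutathione transferases tested gave 1 gene called in both mutants, gst-24, and 2 called in rps-23(0)/tmC5 alone. Over all genes tested, 0.0755% were called in both mutants and 0.625% in rps-23(0)/tmC5. gst-10 was at 206 and 197 CPM in rps-23(0)/tmC5, against 12.1, 22.1, 18.7 and 16.4 CPM in WT/tmC5, and at 65.4 and 72.5 CPM in rps-10(0)/tmC20, against 70.6, 49.1 and 21.1 CPM in WT/tmC20. The changes were 3.54 ± 0.36 (adjusted p = 0.000501) and 0.56 ± 0.39 (adjusted p = 1), with a difference of -2.97 (-4.14 to -1.80, adjusted p = 0.136). Of that difference, -1.54 lay between the mutants and 1.43 between the controls, since gst-10 was higher in WT/tmC20 than in WT/tmC5. Its exons shared 29.4% of their 31-base words with F56A4.3 and F56A4.4. gst-1 was at 815 and 734 CPM in rps-23(0)/tmC5 with 220 to 290 CPM in WT/tmC5, and at 335 and 371 CPM in rps-10(0)/tmC20 with 234 to 382 CPM in WT/tmC20, a rise of 1.57 ± 0.22 (adjusted p = 0.00445) in the former alone. All 15 glutathione transferases tested had a fitted change above 0 in rps-23(0)/tmC5, with a list median of 0.95, beside 4092 of 9276 genes above 0 and a median of -0.08 over all genes tested. The list median in rps-10(0)/tmC20 was 0.29, beside -0.05 over all genes.

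The list of 54 chaperone and heat shock genes, whose products fold proteins or hold unfolded ones, had 3 genes called in rps-23(0)/tmC5 (aip-1, hsp-43 and hsp-110, all higher) and 0 in rps-10(0)/tmC20. Over all genes tested 0.377% were called higher in rps-23(0)/tmC5. In the contrast between the mutants, 9 of the 54 had an unadjusted p below 0.05, all lower in the rps-10(0)/tmC20 change, and none was on the other side, beside 2.04% lower and 1.49% higher over all genes tested. Over the alternatives the number ran from 6 to 11 lower, with 0 higher under each. None of the 9 passed after adjustment in the main edgeR fit. Among the alternatives aip-1 passed under 4, hsp-110, hsp-70 and dnj-13 under 2 each, and hsp-16.2 and hsp-16.41 under DESeq2 alone.

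hsp-110, an Hsp70-family co-chaperone, was at 2046 and 2022 CPM in rps-23(0)/tmC5, against 775 to 853 CPM in WT/tmC5, and at 817 and 799.8 CPM in rps-10(0)/tmC20, against 788, 791 and 1450 CPM in WT/tmC20. It rose by 1.33 ± 0.26 (adjusted p = 0.0338) in rps-23(0)/tmC5, with a difference of -1.65 (-2.50 to -0.80, adjusted p = 0.335). aip-1, an arsenite-inducible protein that helps the proteasome, was at 224 and 231 CPM in rps-23(0)/tmC5 with 33.1 to 40.6 CPM in WT/tmC5, and at 24.7 and 35.0 CPM in rps-10(0)/tmC20 with 30.4, 32.7 and 178 CPM in WT/tmC20. Its changes were 2.62 ± 0.55 (adjusted p = 0.0435) and -1.43 ± 0.63 (adjusted p = 1), a difference of -4.06 (-5.89 to -2.22, adjusted p = 0.209).

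The stress-inducible members had the widest spread. hsp-70 was at 1259 and 1188 CPM in rps-23(0)/tmC5, against 17.3, 58.2, 95.2 and 5.99 CPM in WT/tmC5, and at 56.2 and 53.8 CPM in rps-10(0)/tmC20, against 42.2, 30.0 and 447 CPM in WT/tmC20. Its log2 change of 4.80 ± 1.03 in rps-23(0)/tmC5 missed the threshold (adjusted p = 0.055), and the difference was -6.46 (-9.94 to -2.97, adjusted p = 0.372). The small heat shock gene hsp-16.2 was at 363 and 266 CPM in rps-23(0)/tmC5 with 1.60 to 34.3 CPM in WT/tmC5, and at 29.1 and 18.8 CPM in rps-10(0)/tmC20 with 9.81, 15 and 135 CPM in WT/tmC20. hsp-16.41, its neighbour, followed the same order, with 248 and 201 CPM in rps-23(0)/tmC5 and 8.72 and 13.8 CPM in rps-10(0)/tmC20. For aip-1, hsp-110, hsp-70, hsp-16.2 and hsp-16.41, the WT/tmC20 control with high yolk RNA, day 4 replicate 1, was also the highest of the 3 WT/tmC20 libraries. Without that library the aip-1 difference shrank from -4.06 to -2.71 and passed the threshold (adjusted p = 0.0464), and the chaperone list had 7 members at an unadjusted p below 0.05, all lower. The WT/tmC5 libraries with high yolk RNA did not stand apart in this way. There hsp-70 was at 17.3 and 5.99 CPM, against 58.2 and 95.2 CPM in the others. aip-1 was at 39.2 and 33.1 CPM, against 34.9 and 40.6 CPM, and hsp-110 at 853 and 775 CPM, against 826 and 789 CPM. The endoplasmic reticulum chaperone hsp-4 (BiP) was at 1661 and 1694 CPM in rps-23(0)/tmC5 and 448 to 718 CPM in WT/tmC5, and at 686 and 680.4 CPM in rps-10(0)/tmC20 and 541 to 614 CPM in WT/tmC20.

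Of the other genes called in rps-23(0)/tmC5 alone, the acid phosphatase gene pho-11 was at 328.3 and 327.5 CPM there with 70.5 to 128 CPM in WT/tmC5, and at 89.7 and 78.9 CPM in rps-10(0)/tmC20 with 76.5 to 140.5 CPM in WT/tmC20. It rose by 1.79 ± 0.28 (adjusted p = 0.00722), and the difference was -2.27 (-3.17 to -1.37, adjusted p = 0.136). The saposin-like gene spp-5, the acid DNase nuc-1 and the acid ceramidase asah-1 rose by 1.22, 1.45 and 2.31 (adjusted p = 0.0275, 0.0338 and 0.0096). Of these, spp-5 and nuc-1 overlapped with the controls in rps-10(0)/tmC20, whereas asah-1 did not, and its difference of -1.16 had an interval of -2.40 to 0.08. On a list of 18 lysozymes and saposins, 1 gene was called in rps-23(0)/tmC5 (spp-5), beside 0.625% of all genes tested. In the contrast between mutants 4 of the 18 were lower at an unadjusted p below 0.05 (spp-1, spp-5, spp-17 and ilys-5) and 0 were higher, beside 2.04% and 1.49% over all genes tested. None of the 4 passed after adjustment in the main edgeR fit, while spp-5 passed under 2 alternatives and spp-17 under DESeq2 alone.

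The infection response gene irg-4, the lectin gene clec-52 and F08G2.5 rose in rps-23(0)/tmC5 and did not overlap with their controls in rps-10(0)/tmC20 either. irg-4 was at 127 and 120.1 CPM in rps-23(0)/tmC5 with 2.80 to 15.4 CPM in WT/tmC5, and at 35.9 and 39.5 CPM in rps-10(0)/tmC20 with 2.81 to 12.3 CPM in WT/tmC20. Its log2 changes were 3.80 ± 0.59 and 2.08 ± 0.66 (adjusted p = 0.00776 and 0.832), with a difference of -1.72 (-3.67 to 0.22). clec-52 was at 91.7 and 74.5 CPM and at 78.5 and 70.1 CPM in the mutants, and the difference of -1.16 (-3.39 to 1.08) was not detectable with these libraries. For all 3 genes the interval of the difference included 0, and all 3 were called in the mean of the 2 changes (adjusted p = 0.0067 for irg-4, 0.0103 for clec-52 and 0.0116 for F08G2.5).

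Of the 51 genes called in rps-23(0)/tmC5 alone, 34 had the same sign in rps-10(0)/tmC20, 16 of the 29 that rose and 18 of the 22 that fell, a share near the 64.3% over all genes tested. For 40 of the 51 the interval of the difference left out 0. As these genes were picked by one of the 2 changes that enter the difference, that share is a description and no test.

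**Figure D4:**
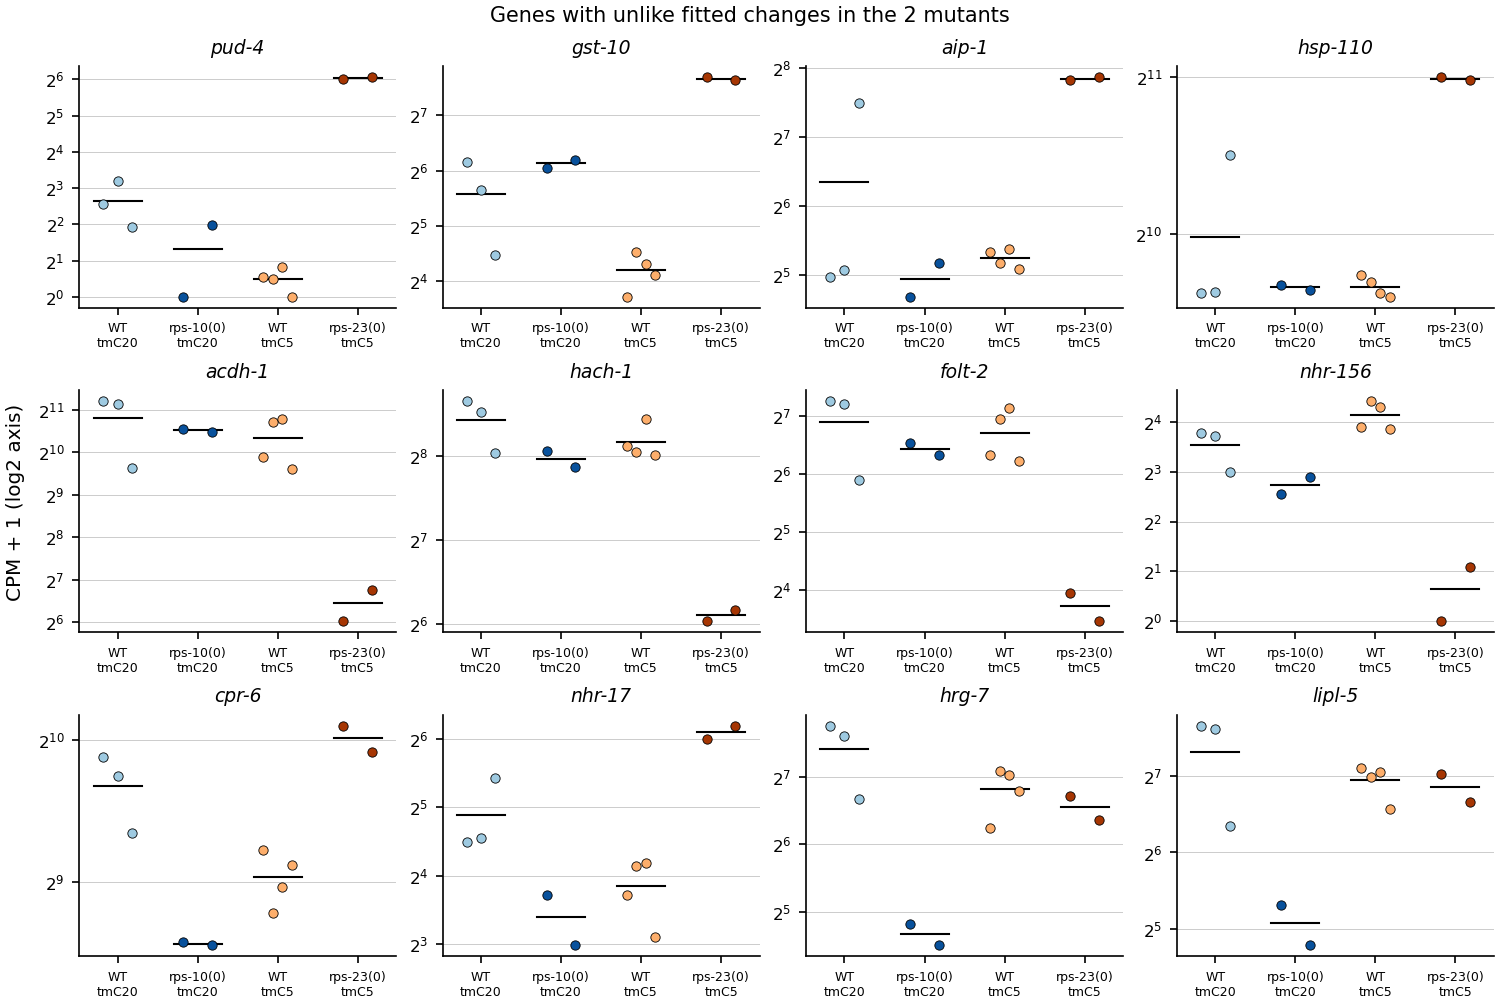
CPM + 1 (log2 axis) of 12 genes with unlike fitted changes in the mutants, with 1 point per library and a line at the group mean. In the upper rows rps-23(0)/tmC5 stands apart from the other 3 groups, as for acdh-1 at 64.5 and 108 CPM against at least 776 CPM elsewhere, and in the lower row rps-10(0)/tmC20 has the lowest mean.

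The 5 genes called in rps-10(0)/tmC20 alone were hrg-7, lipl-5 and Y73B3A.1, which fell, and fipr-22 and sodh-1, which rose. The call of fipr-22 passed under 5 of 24 alternatives and was lost with each of the 11 libraries left out in turn, and those of hrg-7 and lipl-5 passed under 15 of 25 each, of sodh-1 under 13 of 25 and of Y73B3A.1 under 18 of 24. All 5 had the same sign in rps-23(0)/tmC5, and the interval of the difference left out 0 for the first 4. hrg-7, a heme-responsive secreted protease of the intestine, was at 27.1 and 21.7 CPM in rps-10(0)/tmC20, against 215, 192 and 100.4 CPM in WT/tmC20, and at 104 and 81.2 CPM in rps-23(0)/tmC5, within its controls at 74.7 to 134 CPM. Its changes were -2.79 ± 0.43 (adjusted p = 0.0251) and -0.27 ± 0.36 (adjusted p = 0.822), with a difference of -2.51 (-3.66 to -1.36, adjusted p = 0.209).

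lipl-5, a lysosomal lipase, was at 38.8 and 26.6 CPM in rps-10(0)/tmC20, against 201, 195 and 80.0 CPM in WT/tmC20, and at 129 and 100.1 CPM in rps-23(0)/tmC5, within 93.8 to 136 CPM in WT/tmC5. It fell by 2.27 ± 0.36 in rps-10(0)/tmC20 (adjusted p = 0.0281), and the difference was -2.18 (-3.18 to -1.19, adjusted p = 0.209). For hrg-7 and lipl-5 the lowest WT/tmC20 library was day 4 replicate 1. Y73B3A.1 was at 2.42 and 0.493 CPM in rps-10(0)/tmC20 with 41.6 to 91.3 CPM in WT/tmC20, and at 16.7 and 14.5 CPM in rps-23(0)/tmC5 with 22.1 to 74.3 CPM in WT/tmC5, a difference of -3.65 (-5.48 to -1.83). Its exons shared 44.3% of their 31-base words with set-26 and set-9.

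sodh-1, an alcohol dehydrogenase, was at 61.1 and 75.0 CPM in rps-10(0)/tmC20 with 14.7 to 19.8 CPM in WT/tmC20, and at 52.3 and 62.8 CPM in rps-23(0)/tmC5 with 17.6 to 38.2 CPM in WT/tmC5. Its changes were 1.99 ± 0.32 (adjusted p = 0.0281) and 1.21 ± 0.29 (adjusted p = 0.0902), and the difference of 0.78 (-0.18 to 1.73) did not leave out 0. fipr-22, of a family induced by fungal infection, was at 39.2 and 43.9 CPM in rps-10(0)/tmC20 and at 45.5 and 50.6 CPM in rps-23(0)/tmC5, a fitted difference of -0.21 between the mutants. Its controls were at 4.90, 10.2 and 4.91 CPM in WT/tmC20 and 29.9 to 34.5 CPM in WT/tmC5. The difference of 2.02 (0.70 to 3.34) was thus carried by the control libraries, and 65.8% of the 31-base words of fipr-22 also occurred in fipr-23, C37A5.3 or other genes. Among the 44 genes called in 1 mutant whose interval left out 0, the fitted difference was larger between the mutants for 37 and larger between the controls for 7, and for 4 of these the mutants differed in the opposite direction.

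**Figure D5:**
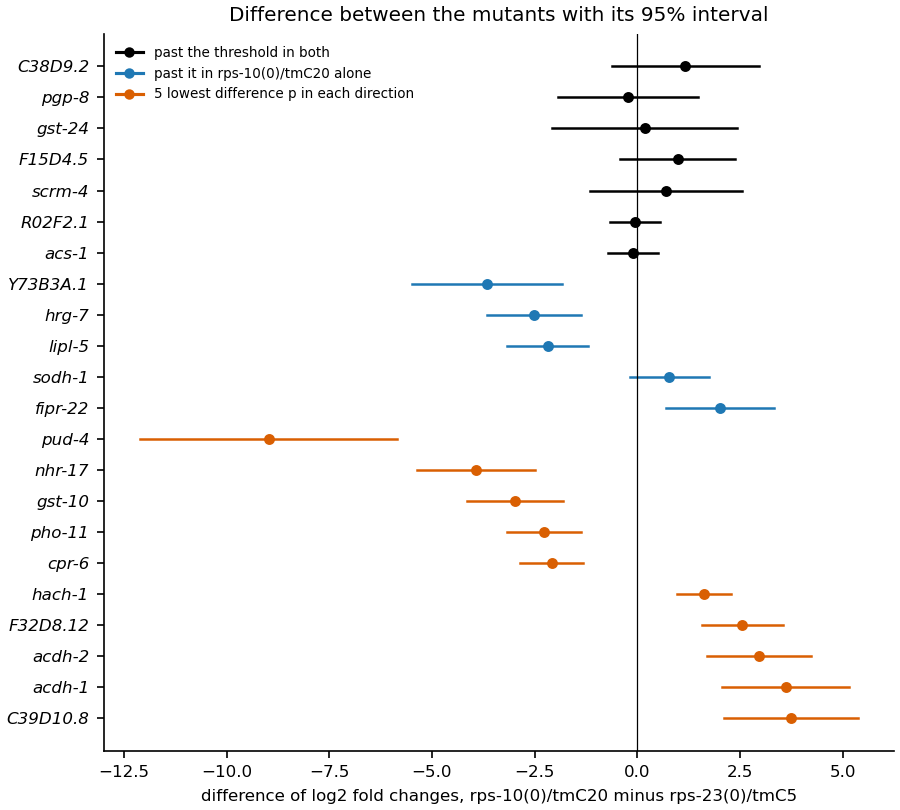
Difference of log2 fold changes, rps-10(0)/tmC20 minus rps-23(0)/tmC5, with its 95% interval, for the 7 genes past the threshold in both mutants, the 5 past it in rps-10(0)/tmC20 alone, and the 5 genes with the lowest unadjusted p of the difference in each direction. All 7 intervals of the first set include 0, while those of the last 10 genes were selected for lying away from 0, from -8.98 for pud-4 to 3.74 for C39D10.8.

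No gene passed the threshold in both mutants with opposite signs, but 3 of the genes with the lowest p in the contrast between mutants had fitted changes of opposite sign and no overlap of groups. cpr-6, a cathepsin B-like protease of the intestine, was at 381 and 376 CPM in rps-10(0)/tmC20, below 942, 856 and 649 CPM in WT/tmC20, and at 1097 and 964 CPM in rps-23(0)/tmC5, above 599, 439, 500.2 and 557 CPM in WT/tmC5. Neither single change passed the threshold (-1.11 ± 0.27, adjusted p = 0.337, and 0.98 ± 0.24, adjusted p = 0.0883), and the difference of -2.08 (-2.85 to -1.32) had an adjusted p of 0.124. nhr-17 was at 12.1 and 6.91 CPM in rps-10(0)/tmC20, below 21.6, 22.5 and 42.1 CPM in WT/tmC20, and at 62.9 and 72.3 CPM in rps-23(0)/tmC5, above 7.59 to 17.2 CPM in WT/tmC5. It rose by 2.34 ± 0.42 in rps-23(0)/tmC5 (adjusted p = 0.0198), had a change of -1.59 ± 0.51 in rps-10(0)/tmC20 (adjusted p = 0.832), and differed by -3.94 (-5.38 to -2.50, adjusted p = 0.124). C39D10.8 had the reverse order, from 2.94 to 4.77 CPM in WT/tmC20 to 4.85 and 4.93 CPM in rps-10(0)/tmC20, and from 4.79 to 12.5 CPM in WT/tmC5 to 0.758 and 0.556 CPM in rps-23(0)/tmC5. The change of C39D10.8 in rps-10(0)/tmC20 was 0.28 ± 0.47 (adjusted p = 1). Groups did not overlap for 19.9% of all genes in rps-10(0)/tmC20, for 24.8% in rps-23(0)/tmC5, and in opposite directions in both pairs for 111 of 9276 genes (1.2%).

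The count of genes that differed depended on the controls and the tool. Of 25 alternatives, 4 called any gene in the contrast between the mutants, namely DESeq2 (39 genes), the use of only the day 3 controls (32), a fit in which each age of a control had a group of its own (15) and the omission of WT/tmC20 day 4 replicate 1 (14). These alternatives are not separate checks. The day 3 fit and the omission left the same WT/tmC20 libraries, and the fit by age set WT/tmC20 day 4 replicate 1 in a group of its own. Together the 4 called 58 genes, 7 of them under all 4 (F32D8.12, aip-1, pud-3, hrg-7, gst-10, pud-4 and cpr-6) and a further 6 under 3 (acdh-1, pho-11, cth-1, cpz-1, nhr-17 and lipl-5). Of these 13, F32D8.12 and acdh-1 had the higher change in rps-10(0)/tmC20 and 11 had the higher change in rps-23(0)/tmC5. F32D8.12, which overlaps F32D8.11 on the same strand over 36.3% of its exons, was at 18.2 and 14.5 CPM in rps-23(0)/tmC5 with 90.5 to 114 CPM in WT/tmC5, and at 87.2 and 90.8 CPM in rps-10(0)/tmC20 with 46.3 to 130.2 CPM in WT/tmC20.

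A further 14 genes were called only in the mean of the 2 changes, 7 higher and 7 lower. Those with a known role included the elongase elo-1, which acts in making polyunsaturated fatty acids and stood at -0.81 in rps-10(0)/tmC20 and -0.76 in rps-23(0)/tmC5 (mean -0.78, adjusted p = 0.0316), and cpt-1, of the carnitine palmitoyltransferase family, at 0.74 and 0.78 (mean 0.76, adjusted p = 0.0222). aagr-1, an acid alpha-glucosidase relative, was at 80.0 and 83.4 CPM in rps-10(0)/tmC20 with 23.2 to 48.1 CPM in WT/tmC20, and at 112 and 99.0 CPM in rps-23(0)/tmC5 with 30.4 to 43.7 CPM in WT/tmC5 (mean change 1.32, adjusted p = 0.0222). The aspartic protease asp-13 was at 67.8 and 54.8 CPM with 95.5 to 216 CPM in WT/tmC20, and at 31.1 and 20.6 CPM with 61.1 to 99.9 CPM in WT/tmC5 (mean change -1.49, adjusted p = 0.0126). F19B10.13, with no reads in the 3 WT/tmC20 libraries, was at 4.85 and 5.43 CPM in rps-10(0)/tmC20 and at 15.2 and 13.3 CPM in rps-23(0)/tmC5, where WT/tmC5 had 0 to 2.34 CPM.

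No ribosomal protein gene was called in any contrast. The 31 small-subunit genes tested had median log2 changes of 0.32 in rps-10(0)/tmC20 and 0.56 in rps-23(0)/tmC5, and the 47 large-subunit genes 0.31 and 0.56. Most members lay above 0, 30 of 31 and 45 of 47 in rps-10(0)/tmC20 and 30 of 31 and 47 of 47 in rps-23(0)/tmC5. At an unadjusted p below 0.05, 16 of 31 and 23 of 47 were higher in rps-23(0)/tmC5, beside 7.56% of all genes, 19 and 26 were higher in the mean, beside 5.83%, and 0 and 1 were higher in rps-10(0)/tmC20. In the contrast between mutants 1 small-subunit gene had an unadjusted p below 0.05, on the lower side. Summed small-subunit RNA in WT/tmC5 was 43560 and 42070 CPM in the libraries with high yolk RNA and 63280 and 62750 CPM in the others. It was 71460 and 73250 CPM in rps-23(0)/tmC5. In WT/tmC20 it was 56260, 50520 and, with high yolk RNA, 44560 CPM, beside 59570 and 63020 CPM in rps-10(0)/tmC20. Large-subunit sums split the same way. The part of stage in these changes was not tested. The 9 mitochondrially encoded genes had medians of -0.10 and 0.02, the 46 nuclear respiratory chain genes -0.12 and 0.02, and the 70 mitochondrial ribosomal protein genes -0.09 and -0.26, again with 0 called. The 24 ribosome biogenesis genes had medians of 0.01 and 0.04, the 33 proteasome genes -0.08 and 0.15 and the 8 integrated stress response genes -0.03 and -0.08, with 0 called. Among the latter, pek-1, the PERK kinase of the unfolded protein response, was at 50.4 and 51.8 CPM in rps-10(0)/tmC20, below 73.6, 81.1 and 128 CPM in WT/tmC20, and at 152 and 160.1 CPM in rps-23(0)/tmC5 with 51.5 to 108 CPM in WT/tmC5.

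The remaining lists held few called genes. The 28 ABC transporters held pgp-8, higher in both mutants. The 26 pathogen response genes held fipr-22, higher in rps-10(0)/tmC20, and irg-4, higher in rps-23(0)/tmC5. In rps-23(0)/tmC5, 48 C-type lectins held clec-52 (higher) and 15 SKN-1 pathway genes held gst-10 (higher). There 9 mitochondrial unfolded protein response genes held acdh-1, which fell, and 102 cuticle collagens held col-160, which fell by 1.47 ± 0.30 (adjusted p = 0.0435). Over all genes tested, 0.129% were called in rps-10(0)/tmC20 and 0.625% in rps-23(0)/tmC5. The SKN-1 list had median changes of 0.02 in rps-10(0)/tmC20 and 0.18 in rps-23(0)/tmC5, beside -0.05 and -0.08 over all genes. Among 39 UDP-glucuronosyltransferases, ugt-52 was called in the mean alone (1.57, adjusted p = 0.0427), and 25 cytochrome P450 genes held 0. The stage lists (6 vitellogenins, 33 oocyte and eggshell genes, 52 sperm genes, 48 molting genes and 44 pharyngeal cuticle genes), the 3 balancer marks and the tissue markers (body wall muscle 5, pharynx 4, intestine 7, hypodermis 4, neuron 6 and germline 8 genes) held 0 called genes in any contrast. The tmC5 mark F36H1.3 was nevertheless at 18.2 and 9.45 CPM in rps-23(0)/tmC5, against 1.40 to 3.195 CPM in WT/tmC5. Its change there was 2.63 ± 0.75 (edgeR adjusted p = 0.173). In rps-10(0)/tmC20 it was at 15.5 and 15.3 CPM, within its controls at 2.81 to 25.9 CPM. The difference was -2.83 (-5.14 to -0.52), and the part of balancer dose or stage in it was not tested. As the pooled controls differed in stage markers, intervals of stage genes could be wide. For vit-1 they ran from -6.15 to 1.58 in rps-10(0)/tmC20 and from -5.28 to 1.98 in rps-23(0)/tmC5. The lack of calls on the stage lists therefore does not show that mutants and controls were alike in stage. Median changes of the vitellogenins were -1.82 and -1.27, and of the sperm genes 0.15 and 1.10, in rps-10(0)/tmC20 and rps-23(0)/tmC5. At an unadjusted p below 0.05, 16 of 52 sperm genes were higher in rps-23(0)/tmC5 and 1 was lower, beside 7.56% higher over all genes. In rps-10(0)/tmC20 the counts were 0 and 0. Summed sperm RNA was 2087 and 1669 CPM in rps-23(0)/tmC5 and 780 to 1066 CPM in WT/tmC5. It was 2539 and 2696 CPM in rps-10(0)/tmC20 and 2748, 2643 and 1344 CPM in WT/tmC20. The larger change in rps-23(0)/tmC5 thus came with lower controls.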

How the data were processed

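RNA-seq libraries were prepared by the authors from whole animals with a stranded kit, and reads were mapped to the WBcel235 transcriptome with the RiboFlow pipeline. The authors deposited raw read counts per gene, with no normalization, in 20 RNA columns, of which 17 were distinct (3 pairs of identical columns). Outside the libraries compared here, the columns headed for rpl-5(0) held the same counts as those for rpl-33(0). They entered the fit once, as rpl-33(0), although their genotype is uncertain. The strand setting of the counting is not given in the sources used here. The authors sequenced 3 replicates and removed the last for low depth. Ribo-seq was not analysed here.

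All 17 libraries entered 1 fit with group as the only term, and the controls of a balancer were pooled over ages. The main test was glmQLFTest (edgeR 4.0.16, R 4.3.3) on TMM-scaled counts after filterByExpr. Benjamini-Hochberg adjustment ran over 9276 genes, with a threshold of 0.05. The contrasts were each mutant against its control, their difference and their mean. The fitted SE and the 95% interval come from the same fit, and CPM values were scaled by TMM. DESeq2 1.42.0 and limma 3.58.1 (voom) served as alternatives, with other scalings, filters, control ages, a replicate block and each library left out. The steps were tested on simulated counts. Positions, exon overlaps and shared 31-base words came from the WBcel235 annotation. A floor of 3 counts in each library was set for a group at 0, but no fold built on it is given here.

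The genes named were the mutated genes, genes called in both mutants or in rps-10(0)/tmC20, the 10 with the largest change in each direction in rps-23(0)/tmC5, the 5 in each direction in the mean, the 5 lowest p in each direction of the difference, and members of lists. Other genes (among them hsp-70, hsp-16.2, hsp-16.41, hsp-4 and fat-6) were named after their values were seen. The comparison, gene lists and named genes were chosen with earlier results of these data known.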

Additional observations from a re-analysis of the deposited data

Results flagged for a closer look

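No library of the 92 genes named by rule lay apart from the rest of its group by Dixon's test at 0.829 in WT/tmC5, the one group of 4. In 8 genes every library of one mutant lay above all its controls and every library of the other below, as for 111 of all 9276 genes tested (1.2%). The 92 genes were partly chosen for large changes or differences. The difference of log2 changes, rps-10(0)/tmC20 minus rps-23(0)/tmC5, was -1.10 for rps-10 (adjusted p = 0.96), 0.685 for rps-23 (adjusted p = 1), 3.74 for C39D10.8 (adjusted p = 0.182), -2.08 for cpr-6 (adjusted p = 0.124), -3.94 for nhr-17 (adjusted p = 0.124), 1.22 for the mitochondrial ribosomal protein gene mrpl-48 (adjusted p = 1), 2.42 for pqn-31 (adjusted p = 0.806) and -1.90 for pek-1 (adjusted p = 0.602). The difference was tested for each with edgeR and passed the threshold for none. For mrpl-48 the values were 20.4 and 17.3 CPM in rps-10(0)/tmC20, 14.7 to 16.1 CPM in WT/tmC20, 11.4 and 7.78 CPM in rps-23(0)/tmC5 and 15 to 25.6 CPM in WT/tmC5. For pqn-31 they were 45.5 and 31.1 CPM, 10.8 to 19.8 CPM, 12.1 and 12.2 CPM, and 15.9 to 34.9 CPM in the same order.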

How the results depend on the processing

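Counts of genes past the threshold are given in the order rps-10(0)/tmC20, rps-23(0)/tmC5, difference, both mutants and mean, where the values reported were 12, 58, 0, 7 and 53. DESeq2 gave 34, 157, 39, 13 and 133. A minimum of 10 counts in every library gave 5, 29, 0, 2 and 27 over 5316 genes. Day 3 controls alone gave 12, 143, 32, 4 and 92, day 4 controls alone 3, 5, 0, 1 and 10, each control age as its own group 11, 250, 15, 6 and 284, and the 4 groups fitted on their own 2, 35, 0, 2 and 31. After seeing the data, WT/tmC5 day 3 replicate 1 and the first day 4 column were left out, which gave 9, 12, 0, 3 and 35, and leaving out WT/tmC20 replicate 2 as well gave 3, 8, 0, 3 and 17. Library totals (13, 64, 0, 7 and 65), DESeq2 size factors (13, 62, 0, 8 and 57), limma voom (8, 80, 0, 8 and 41) and no filter (12, 58, 0, 7 and 51) stayed within 1.5 times. The split of rps-23(0)/tmC5 calls into 35 higher and 23 lower became 27 and 37 with library totals, which moved the median of all genes to -0.25, and 61 and 19 with limma voom. Leaving out each library gave 2 to 10, 7 to 155, 0 to 14, 2 to 6 and 15 to 62. The highest counts for rps-23(0)/tmC5 and the difference, 155 and 14, came without WT/tmC20 day 4 replicate 1, and either rps-23(0)/tmC5 library left out gave 7 for that mutant. Across all genes, Pearson's r of the 2 changes was 0.41, and it turned to -0.044 with day 3 controls alone and to -0.070 without WT/tmC20 day 4 replicate 1. It was 0.53 with each control age as its own group and ran up to 0.51 with other libraries left out. Genes are not independent, and the cause was not tested. With these libraries and their spread a typical gene needed a 2.92-fold difference for its interval to leave out 0.

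No pairing by replicate number was seen, as the deviations of same-numbered libraries correlated between -0.038 and 0.025 over 6 pairs of groups. This check could miss a pairing. Some pairs held the WT/tmC5 day 3 replicates, which differed in yolk RNA, or WT/tmC20 replicate 2, of unknown age. The replicate block on the numbered columns gave 4, 2, 0, 2 and 11, and the same columns without the block, added after seeing the data, gave 3, 3, 0, 2 and 19.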

Other observations

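The levels of 3 genes called in the contrast between mutants under some alternatives were not given above. fipr-1, of the same fungus-induced family as fipr-22, had no reads in the 3 WT/tmC20 libraries and was at 3.39 and 5.43 CPM in rps-10(0)/tmC20, while it was at 0 and 0.556 CPM in rps-23(0)/tmC5 and at 1.87 to 9.98 CPM in WT/tmC5. Neither mutant's change passed the threshold (edgeR adjusted p = 0.46 and 0.226), nor did the difference (adjusted p = 0.182), which passed in DESeq2 alone of the alternatives run. cth-1, a cystathionine gamma-lyase relative, was at 7.75 and 6.91 CPM in rps-10(0)/tmC20, where WT/tmC20 was at 72.6, 72.3 and 9.13 CPM, and at 34.9 and 42.2 CPM in rps-23(0)/tmC5, where WT/tmC5 was at 14.5 to 27.5 CPM. cpz-1, a cathepsin Z relative, was at 550 and 603 CPM in rps-10(0)/tmC20 with 463 to 963 CPM in WT/tmC20, and at 1176 and 1144 CPM in rps-23(0)/tmC5 with 440.1 to 526.3 CPM in WT/tmC5. fipr-1, cth-1 and cpz-1 were chosen after their values were seen.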
